A study of Mus musculus with 9 samples.

Results

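Glycolysis splits glucose into pyruvate in the cytosol, and lactate dehydrogenase then turns pyruvate into lactate while restoring the NAD+ that the pathway uses up. Dendritic cells, which take up antigen and present its peptides on MHC molecules, are known to draw on glycolysis when they are activated, and the transcription factor HIF-1 is a known activator of most of its genes. The glycolysis enzymes described here were a list of 10 genes: the glucose transporter Slc2a1, the hexokinases Hk1 and Hk2, then Gpi1, Aldoa, Tpi1, Pgk1, Pgam1 and Eno1 in the order in which their enzymes act, and Ldha. The list names genes of the pathway and uses no measured value, although earlier results of these data were known when it was drawn up, and every probe set annotated with 1 of these symbols alone was taken, apart from the maker's control probe sets. Of the 10 genes, 8 had a probe set, of 8251 genes with a symbol of their own on the array design of experiments 2 and 3: they made up 10 probe sets of the 12488 there, and 10 of the 12654 on the design of experiment 1. Gpi1 and Eno1 had none under that symbol and are not analysed here.

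RNA of mouse dendritic cells on day 10 was measured on 9 Affymetrix arrays, with 3 arrays of each of 3 groups and 1 array of each group in each of 3 experiments. The groups were CIITA-/- cells, which lack the transactivator that switches on MHC class II genes, IAb-/- cells, which lack the I-Ab class II molecule, and B6 cells, the common short name of C57BL/6, as the reference. The labels give no age, sex, tissue of origin or stimulus, and nothing in them ties an array to a mouse or a culture, so each p-value reflects array-to-array spread that may be purely technical. Experiments 2 and 3 share an array design and gave 2 arrays a group for every test, while experiment 1 lies on another design and is given beside them as differences within the experiment, with no test.

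The deposited values are intensities in arbitrary units, and between 21.0% and 26.4% of the probe sets on an array were below 0. What was subtracted to give negative values is not stated in the sources used here. The noise limit used below is the intensity that 95% of the negative values did not exceed in size, 1701 in experiments 2 and 3 and 2203 in experiment 1. Most dendritic cell markers were measured: 7 of 10, among them Itgax, Flt3 (2228 to 2766), Cd74 and Ccr7, were above the noise limit on all 6 arrays of experiments 2 and 3. Zbtb46 ranged from 1167 to 2778, and Dpp4, at 602 to 764, was below the limit throughout. H2-Aa, a class II gene, was above the limit on all arrays but those of CIITA-/- cells. Of markers of other cells, 3 of 9 for macrophages were above the limit on all 6 arrays, among them Cd68 (5197 to 7740) and Cd14 (4849 to 7249). So were 1 of 9 for neutrophils, 1 of 7 for T cells, 1 of 5 for B cells, 1 of 5 for erythroid cells and 1 of 7 for fibroblasts. None was for NK or mast cells. In whole-sample RNA such as this, fewer cells of a type and less RNA per cell cannot be told apart. The hybridisation control Cre, bacteriophage RNA added at the same amount to every sample in the maker's protocol, averaged 94197 and 92636 on the CIITA-/- arrays of experiments 2 and 3, 119963 and 68563 on the IAb-/- arrays, and 83748 and 83003 on the B6 arrays. The IAb-/- array of experiment 2 was thus the brightest for this control and that of experiment 3 the dimmest, a pattern that returns below in the brightest glycolysis probe sets, and its part in them was not tested.

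HIF-1 binds DNA at a short core with the letters ACGTG or GCGTG, so the start regions of 3 enzymes of the later steps, which lie among the textbook HIF targets, are shown, each from 250 bases before the annotated start of the gene to 50 bases after it. They were read from RefSeq on build GRCm38.p6. Pgk1 is at chrX:106186850-106187149, Pgam1 at chr19:41911621-41911920 and Ldha at chr7:46845554-46845853, all on the plus strand. Letters are capital where ACGTG or GCGTG was found on either strand, including the palindrome CACGTG, the E-box letters that Myc family factors also bind.
Pgk1: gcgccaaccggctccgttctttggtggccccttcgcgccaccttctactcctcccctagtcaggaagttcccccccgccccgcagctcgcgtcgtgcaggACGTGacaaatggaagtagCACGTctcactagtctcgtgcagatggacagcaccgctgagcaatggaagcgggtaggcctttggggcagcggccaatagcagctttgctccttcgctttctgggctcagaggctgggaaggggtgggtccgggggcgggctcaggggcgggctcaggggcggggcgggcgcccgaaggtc
Pgam1: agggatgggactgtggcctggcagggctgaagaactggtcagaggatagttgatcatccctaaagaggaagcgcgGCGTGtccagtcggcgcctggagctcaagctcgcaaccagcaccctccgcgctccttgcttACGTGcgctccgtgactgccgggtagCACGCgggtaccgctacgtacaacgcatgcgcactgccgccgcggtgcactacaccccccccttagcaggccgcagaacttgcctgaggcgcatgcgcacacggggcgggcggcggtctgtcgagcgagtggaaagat
Ldha: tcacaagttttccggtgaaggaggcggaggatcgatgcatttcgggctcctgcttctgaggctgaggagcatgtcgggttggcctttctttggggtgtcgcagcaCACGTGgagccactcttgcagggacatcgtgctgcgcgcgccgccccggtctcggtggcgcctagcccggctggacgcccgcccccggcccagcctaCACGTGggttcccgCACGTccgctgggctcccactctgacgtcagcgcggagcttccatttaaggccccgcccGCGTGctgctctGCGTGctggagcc
The Pgk1 region held the core 150 and 131 bases before the start, the Pgam1 region 175, 114 and 88 bases before it. The Ldha region shown, that of 1 of its 2 annotated starts, held CACGTG 145 and 48 bases before the start. It held the core again 34 bases before the start, and 2 further matches after it. The region of the other Ldha start also had a match, but no CACGTG. Of the 10 glycolysis genes, all of which were in the table, 8 had a match in the region of at least 1 annotated start and Gpi1 and Tpi1 had none. Counted by start, 12 of 16 regions had a match. The letters are common: 43.8% of 32851 mouse start regions of this length held ACGTG or GCGTG on either strand, and 7.15% held CACGTG. A match describes the sequence only, and no factor's binding was measured.

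Most of the enzyme genes were strongly expressed in all 3 genotypes. Of the 10 probe sets on the design of experiments 2 and 3, 7 were above the noise limit on all 6 arrays: Hk1, both Aldoa probe sets, Tpi1, Pgk1, Pgam1 and Ldha. Even their lowest array lay between 11.0 times (Pgam1) and 37.1 times (Aldoa) that limit. Over all probe sets of the table outside the controls, 29.7% were above it on all 6 arrays. The transporter Slc2a1 was above the limit on 4 of 6 arrays, 1 Hk2 probe set on 1, and the other Hk2 probe set on none.

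**Figure D1:**
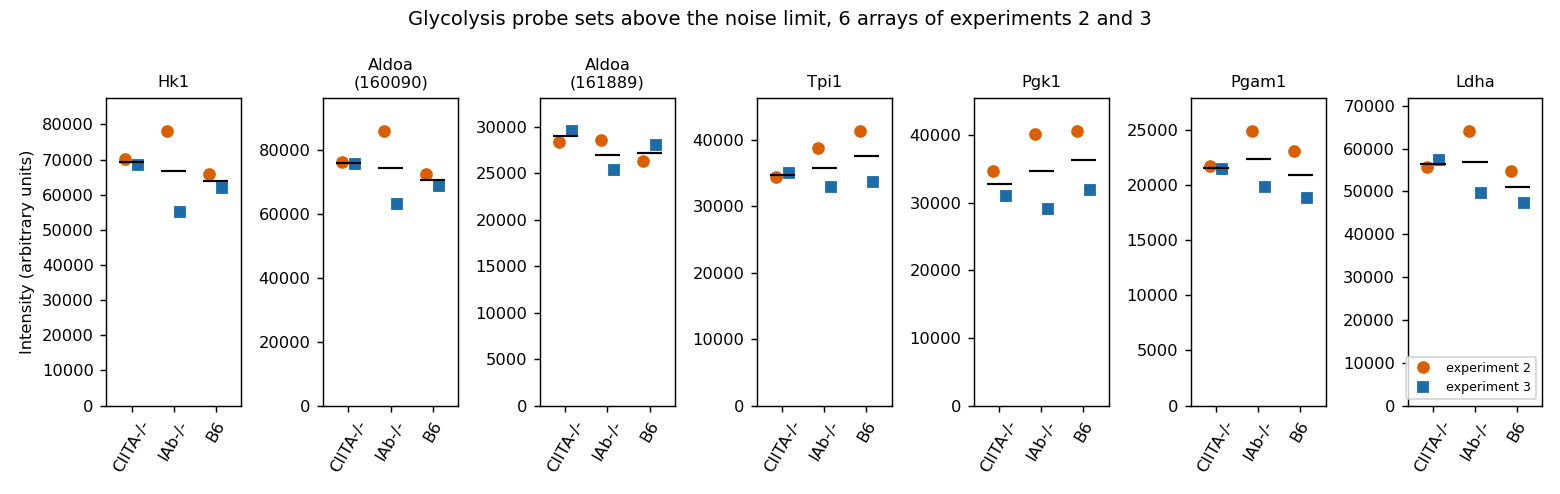
Intensity (arbitrary units, each panel from 0) of the 7 glycolysis probe sets above the noise limit, with CIITA-/-, IAb-/- and B6 from left to right; points are single arrays of experiments 2 and 3 and short lines the group means. The IAb-/- arrays are the widest apart for Hk1, at 78174 and 55170.

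Hk1 (probe set 99335_at) encodes the hexokinase that traps glucose in the cell by phosphorylating it, the form found in most tissues. Its intensity was 70166 and 68588 on the CIITA-/- arrays of experiments 2 and 3, 78174 and 55170 on the IAb-/- arrays, and 65897 and 61969 on the B6 arrays. Both CIITA-/- arrays were above both B6 arrays, whereas the IAb-/- arrays were the highest and the lowest of the 6. In experiment 1 the same probe set had 39954 in CIITA-/- cells, 44809 in IAb-/- cells and 35955 in B6 cells, so CIITA-/- was above B6 in all 3 experiments and IAb-/- was above B6 in experiments 1 and 2. The limma log2 difference was 0.12 (SE 0.21, adjusted p = 0.96) for CIITA-/- against B6 and 0.039 (SE 0.21, adjusted p = 1) for IAb-/- against B6, neither past the threshold.

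Hk2 encodes the inducible hexokinase. Probe set 94375_at read -108 and 1541 on the CIITA-/- arrays of experiments 2 and 3, 2194 and 1205 on the IAb-/- arrays, and 1528 and 338 on the B6 arrays. The values of the 3 groups overlapped, and only the IAb-/- array of experiment 2 exceeded the noise limit. The other Hk2 probe set (161313_at) lay between -234 and 53 on all 6 arrays and did not pass the filter for testing. In experiment 1 94375_at read 1456 in CIITA-/-, 1204 in IAb-/- and 1261 in B6 cells, again within the noise, so no level or difference of Hk2 can be given.

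Slc2a1 (93738_at) encodes GLUT1, the transporter that brings glucose into many cell types. It read 1769 and 1907 on the CIITA-/- arrays, 2774 and 1188 on the IAb-/- arrays, and 1072 and 1751 on those of B6 (experiment 2, then 3). In experiment 1 it read 3903 in CIITA-/- cells, 1799 in IAb-/- cells and 2658 in B6 cells. CIITA-/- was above B6 in each experiment, by 0.55, 0.72 and 0.12 on the log2 scale in experiments 1, 2 and 3, but the B6 value of experiment 2 was itself within the noise. Of the 2876 probe sets above the noise on all 9 arrays, which leave out Slc2a1, 17.6% were higher in CIITA-/- in all 3 experiments. IAb-/- was above B6 in experiment 2 alone. The limma difference of CIITA-/- against B6 was 0.42 (SE 0.48, 95% interval -0.84 to 1.68, adjusted p = 0.93), an interval too wide to settle its direction. With values floored at the noise limit it fell to 0.090 (SE 0.23).

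**Figure D2:**
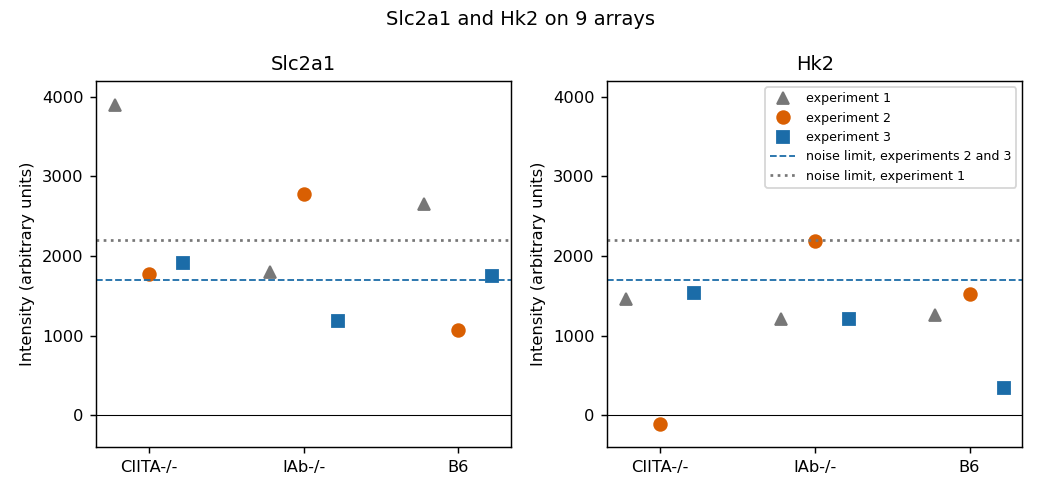
Intensity (arbitrary units) of Slc2a1 and of the Hk2 probe set found on both designs, by group from CIITA-/- on the left to B6 on the right; points are the 9 single arrays and horizontal lines the noise limits of 1701 (experiments 2 and 3) and 2203 (experiment 1). Most Hk2 points lie under the limits, and the Slc2a1 points scatter around them.

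Aldoa encodes aldolase A, which cleaves fructose 1,6-bisphosphate. Its brighter probe set (160090_f_at) read 76223 and 75735 on the CIITA-/- arrays of experiments 2 and 3, 86010 and 63057 on the IAb-/- arrays, and 72456 and 68666 on the B6 arrays. The dimmer (161889_f_at) read 28349 and 29549 in CIITA-/-, 28526 and 25381 in IAb-/-, and 26313 and 27996 in B6. Both CIITA-/- arrays were above both B6 arrays on each probe set, and the IAb-/- arrays overlapped B6 on each. The maker marks both probe sets as matching a family of related sequences, so signal from close copies of Aldoa cannot be separated. The 2 Aldoa probe sets of experiment 1 were within the noise on all 3 arrays, the brighter reading 1796 in CIITA-/-, 1710 in IAb-/- and 1729 in B6 cells. They are other probe sets than those of experiments 2 and 3, although annotated to the same source sequences. A lack of Aldoa RNA in experiment 1 can therefore not be read from them.

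Tpi1 (99566_at) encodes triose phosphate isomerase, which interconverts the 2 products of aldolase. It read 34361 and 35012 on the CIITA-/- arrays, 38795 and 32916 on the IAb-/- arrays, and 41379 and 33716 on those of B6 (experiment 2, then 3). The CIITA-/- arrays lay between the B6 arrays. In experiment 1 it read 42876 in CIITA-/-, 46521 in IAb-/- and 42142 in B6 cells, where both mutants were above B6 and IAb-/- was the highest.

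Pgk1 (93346_at) encodes phosphoglycerate kinase, the first step of the pathway to make ATP. It read 34687 and 30945 on the CIITA-/- arrays, 40192 and 29122 on the IAb-/- arrays, and 40645 and 31927 on those of B6 (experiment 2, then 3). Its high values were those of experiment 2 in all 3 groups, and the groups overlapped. In experiment 1 it read 39338 in CIITA-/-, 43744 in IAb-/- and 38731 in B6 cells. The limma log2 difference of CIITA-/- against B6 was -0.14 (SE 0.24, adjusted p = 0.95), with CIITA-/- lower in experiments 2 and 3 and slightly higher in experiment 1.

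Pgam1 (160091_at) encodes phosphoglycerate mutase, the next step. It read 21664 and 21425 on the CIITA-/- arrays, 24881 and 19842 on the IAb-/- arrays, and 23015 and 18782 on those of B6 (experiment 2, then 3). The CIITA-/- arrays lay close together, inside the range of the other groups. The Pgam1 probe set of experiment 1 was within the noise on all 3 arrays. It is another probe set than that of experiments 2 and 3, although annotated to the same source sequence. A lack of Pgam1 RNA in experiment 1 can therefore not be read from it.

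Ldha (96072_at) encodes the lactate dehydrogenase subunit that favours lactate formation. It read 55604 and 57267 on the CIITA-/- arrays, 64128 and 49560 on the IAb-/- arrays, and 54880 and 47226 on those of B6 (experiment 2, then 3). Both CIITA-/- arrays were above both B6 arrays, the nearest pair by a margin of 0.019 on the log2 scale in experiment 2. In experiment 1 it read 54549 in CIITA-/-, 58731 in IAb-/- and 52597 in B6 cells. Ldha was thus above B6 in all 3 experiments in both mutants, by 0.053, 0.019 and 0.28 in CIITA-/- and by 0.16, 0.22 and 0.070 in IAb-/- cells on the log2 scale. After quantile normalization of experiments 2 and 3 the difference of experiment 2 turned to -0.11 in CIITA-/- cells and was 0.0096 in IAb-/- cells. The limma difference was 0.15 for each mutant against B6 (SE 0.19, adjusted p = 0.93 for CIITA-/- and 1 for IAb-/-), smaller than its error.

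No glycolysis probe set passed the test in CIITA-/- against B6. A call was an adjusted p under 0.05, by limma with Benjamini-Hochberg adjustment over the 9312 probe sets tested, 9 of them glycolysis probe sets. The test called 0 of the 9, where 0.0966% of all probe sets (9) were called, and at an unadjusted p under 0.05 it also gave 0 of the 9, where 5.86% were. Without any 1 of the 6 arrays the test called at most 1 probe set of all, and 0 with the experiment as a block. The 7 differences above the noise ranged from -0.14 (Pgk1) to 0.15 (Ldha) on the log2 scale, with a median of 0.093 beside 0.014 over all probe sets tested. That median was 0.15 without the B6 array of experiment 2, 0.040 without the B6 array of experiment 3 and 0.021 after quantile normalization. The 95% intervals of this fit, without the experiment as a block, ran from -0.75 at their lowest (Pgk1) to 0.67 at their highest (Hk1). They thus reached 1.69-fold lower and 1.59-fold higher in CIITA-/- cells. With the block the interval of Pgk1 was -0.57 to 0.30 and that of Hk1 -0.42 to 0.66. That of the dimmer Aldoa probe set was wider with the block, at -0.34 to 0.52 against -0.29 to 0.47. Both CIITA-/- arrays were above both B6 arrays for 4 of 7 glycolysis probe sets (Hk1, both of Aldoa, and Ldha), where 23.2% of the 3692 probe sets above the noise were, and below both for 0 of 7, where 18.2% were. After quantile normalization, which gives every array the same distribution of values, both CIITA-/- arrays were above both B6 arrays for 1 of 7 (Hk1), where 19.6% of the 3692 were, and the fitted difference of the brighter Aldoa probe set turned to -0.015. CIITA-/- was higher in all 3 experiments for 2 of 4 probe sets above the noise on all 9 arrays (Hk1 and Ldha), where 17.6% of 2876 were, and lower in all 3 for 0 of 4, where 13.2% were, with Ldha turning in experiment 2 after quantile normalization as given above.

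IAb-/- against B6 likewise gave no glycolysis call. The limma test called 0 of 9 at an adjusted p under 0.05, where 0.0107% of all probe sets (1) were called, and gave 0 of 9 at an unadjusted p under 0.05, where 4.31% were. The 7 differences above the noise ranged from -0.074 (Pgk1) to 0.15 (Ldha), with a median of 0.039 beside 0.0050 over all probe sets tested, and their 95% intervals from -0.69 to 0.65. Without the IAb-/- array of experiment 2 the median of the 7 was -0.16, and without that of experiment 3 it was 0.26. After quantile normalization it was -0.017. No glycolysis probe set had both IAb-/- arrays above both B6 arrays, where 17.1% of those above the noise did, or below both, where 15.1% did. Within experiments the direction changed with the experiment: IAb-/- was above B6 for 4 of 4 glycolysis probe sets in experiment 1, for 5 of 7 in experiment 2 and for 2 of 7 in experiment 3, with median log2 differences of 0.17, 0.12 and -0.12. The share of all probe sets above the noise that were higher in IAb-/- was 52.0%, 51.3% and 49.6% in the same order. Among the brightest 10% of the table, to which all 7 belong, the share changed side too, at 58.6% in experiment 2 and 44% in experiment 3. After quantile normalization that share was 47.9% and 49.1%. The median differences of the 7 then shrank to 0.017 in experiment 2 and -0.050 in experiment 3, with 5 of 7 and 3 of 7 higher in IAb-/-. Ldha was the 1 of 4 higher in all 3 experiments, where 13.8% of 2876 were, and none of the 4 was lower in all 3, where 13.6% were.

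CIITA-/- against IAb-/- showed the enzymes lying together on opposite sides of 0 in experiments 2 and 3. The limma test called 0 of 9 glycolysis probe sets at an adjusted p under 0.05, where 0.0215% of all probe sets (2) were called, and gave 0 of 9 at an unadjusted p under 0.05, where 4.54% were. The fitted differences were between -0.062 (Pgk1) and 0.11 (Aldoa), with a median of 0.0014 beside 0.0040 over all probe sets tested, and 95% intervals between -0.68 and 0.63. The median was 0.19 without the IAb-/- array of experiment 2, -0.18 without that of experiment 3 and -0.033 after quantile normalization. Within experiment 2, all 7 probe sets above the noise were lower in CIITA-/- than in IAb-/- cells, with a median log2 difference of -0.18. Within experiment 3, all 7 were higher in CIITA-/-, with a median of 0.21. In experiment 1, all 4 were lower in CIITA-/- (median -0.14), where 46.7% of the 3333 probe sets above the noise on its 3 arrays were higher. The shares of all probe sets above the noise on the 6 arrays that were higher in CIITA-/- were 49.5% in experiment 2 and 49.7% in experiment 3, and among the brightest 10% of the table (1243 probe sets, to which all 7 belong) they were 45.4% and 59.1%. The Cre control, given above, moved the same way in both experiments. In experiment 1 Cre was also lower in CIITA-/- cells, at 46077 against 54157 in IAb-/- cells. Another hybridisation control, BioB, ran the other way in experiment 1, at 9022 in CIITA-/- against 6349 in IAb-/- cells. It ran as Cre did in experiment 2 (8071 against 10271) and in experiment 3 (7513 against 5218). After quantile normalization the members' medians shrank to -0.12 in experiment 2 and 0.059 in experiment 3, with 6 of 7 still lower and all 7 still higher. No glycolysis probe set had CIITA-/- arrays both above or both below the IAb-/- arrays, where 11.8% and 11.9% of all did. None of 4 was higher or lower in all 3 experiments, where 12.1% and 14.1% of 2876 were.

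**Figure D3:**
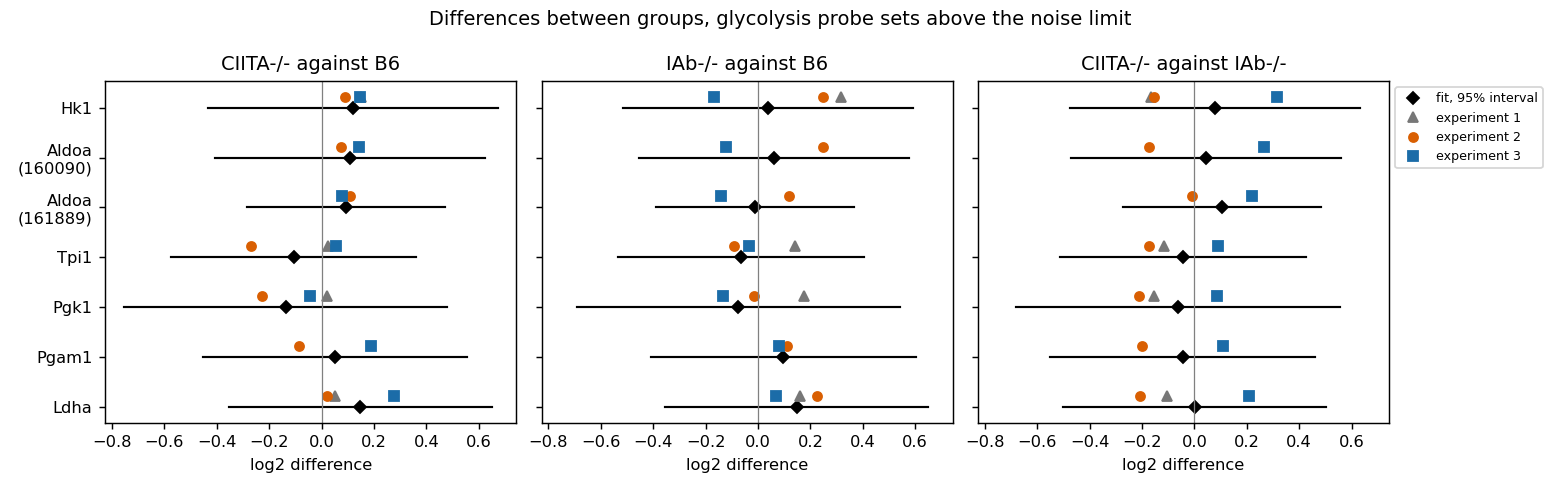
Log2 differences for the 3 comparisons, 1 panel each, of the 7 glycolysis probe sets above the noise; diamonds are limma fits over experiments 2 and 3 with 95% intervals, and coloured points the differences within single experiments, experiment 1 only where its probe set has the same name. Every interval crosses 0, and in CIITA-/- against IAb-/- the points of experiments 2 and 3 lie on opposite sides of 0.

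Across the 6 arrays the highest value was 1.42 times the lowest for Hk1, 1.36 and 1.16 times for Aldoa, 1.26 times for Tpi1, 1.40 times for Pgk1, 1.32 times for Pgam1 and 1.36 times for Ldha. The same ratio had a median of 1.31 over the 3692 probe sets above the noise, with quartiles of 1.21 and 1.47, so the enzymes varied about as much as other well-measured genes. After quantile normalization the ratio was 1.13 for Hk1 and 1.06 for the brighter Aldoa probe set, and 1.34 for Pgk1. The ratio over all probe sets is not given on that scale.

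Experiment 3 against experiment 2, fitted with the 3 groups in the model, gave log2 differences from -0.33 (Pgk1) to -0.0064 (Aldoa, the dimmer probe set), all 7 below 0, with a median of -0.18 beside 0.00031 over all probe sets tested. The median was -0.29 without either CIITA-/- array, -0.087 without either IAb-/- array and -0.067 after quantile normalization, where both Aldoa probe sets were above 0. The limma test called 0 of 9 glycolysis probe sets at an adjusted p under 0.05, where 0.0215% of all (2) were called, and gave 0 of 9 at an unadjusted p under 0.05, where 7.94% were. Pgk1 came nearest, with 30945 in experiment 3 against 34687 in experiment 2 in CIITA-/- cells, 29122 against 40192 in IAb-/- cells and 31927 against 40645 in B6 cells. It was lower in experiment 3 in every group, by a fitted -0.33 in limma (SE 0.12, adjusted p = 0.60). In all, 4 of 7 glycolysis probe sets (Hk1, the brighter of Aldoa, Pgk1 and Pgam1) were lower in experiment 3 in all 3 groups, where 20.3% of the 3692 above the noise were, and 0 of 7 were higher in all 3, where 20.9% were. After quantile normalization only Pgk1 of these 4 stayed lower in all 3 groups, by -0.096 in CIITA-/-, -0.30 in IAb-/- and -0.31 in B6 cells on the log2 scale. The experiment differences were widest in IAb-/- cells before normalization, except for Tpi1, where they were widest in B6 cells.

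**Figure D4:**
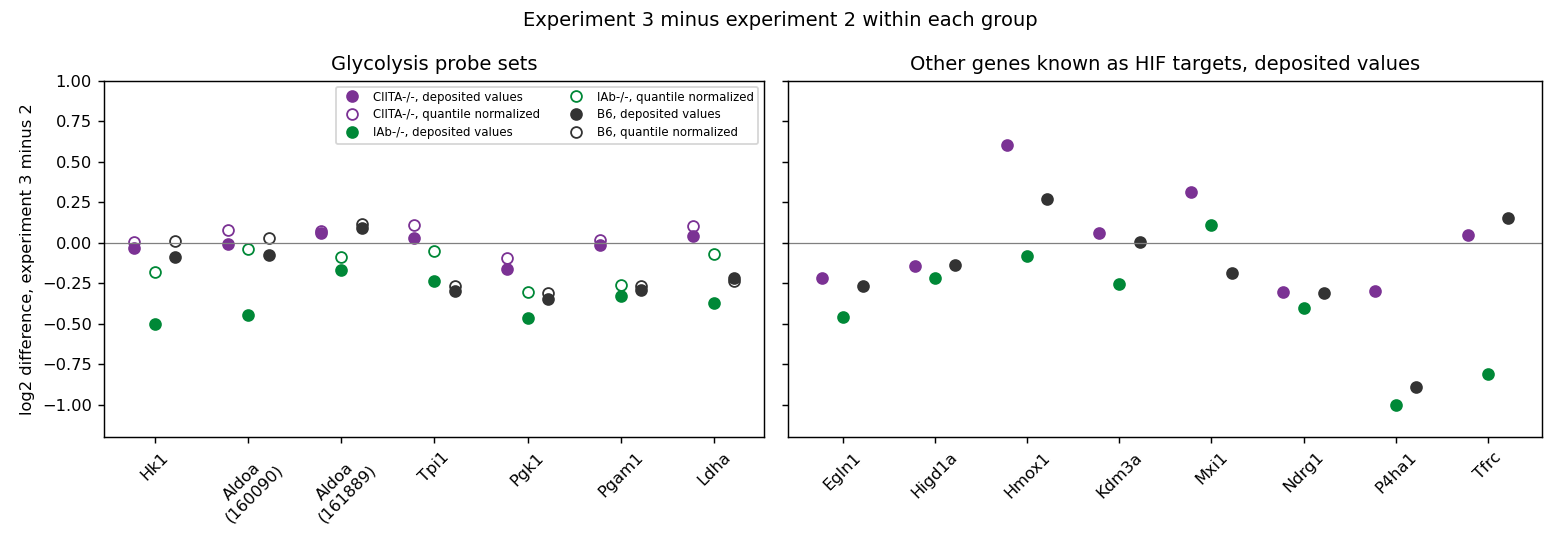
Log2 difference of experiment 3 minus experiment 2 within each group, for the 7 glycolysis probe sets (left; filled points from deposited values, open points after quantile normalization) and for other known HIF targets above the noise (right, deposited values). Pgk1 is below 0 in every group on both scales.

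Around the 10 genes, 61 further genes of 6 lists had a probe set and 49 were tested: other enzymes of glycolysis, transporters of glucose and lactate, regulators, the pentose phosphate branch, pyruvate entry with gluconeogenesis, and other known HIF targets. None was called in either direction in any of the 4 comparisons, and at an unadjusted p under 0.05 there were 4 of 49 in CIITA-/- against B6 (5.86% of all probe sets), 1 in IAb-/- against B6 (4.31%), 0 in CIITA-/- against IAb-/- (4.54%) and 5 in experiment 3 against experiment 2 (7.94%). These counts lie near or below the shares over all probe sets. Of the 28 above the noise, 12 were higher in CIITA-/- than in B6 cells, 14 in IAb-/- than in B6 cells, and 9 in experiment 3 than in experiment 2. Of the other glycolysis enzymes, 8 were tested and 4 were above the noise. Pkm, the pyruvate kinase of most tissues, averaged 32128 ± 1856 in CIITA-/-, 35245 ± 4852 in IAb-/- and 31361 ± 3363 in B6 cells (SD, n = 2 each), a spread that overlapped between groups. Pfkp, a phosphofructokinase, averaged 23225 ± 2810 in CIITA-/-, 20182 ± 232 in IAb-/- and 21075 ± 4230 in B6 cells (SD, n = 2 each), and none of its differences between groups was larger than its error. Bpgm, which makes 2,3-bisphosphoglycerate, is singled out after its values were seen: it had the smallest unadjusted p of the lists in both mutants against B6, but all 6 of its values, between -42.6 and 381.9, were within the noise.

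Among the regulators, Hif1a, the oxygen-regulated subunit of HIF-1, was above B6 in both mutants in every experiment. Of 2876 probe sets above the noise on all 9 arrays, 17.6% were above B6 in all 3 experiments in CIITA-/- cells. In IAb-/- cells 13.8% were. Hif1a read 26101 and 26501 on the CIITA-/- arrays of experiments 2 and 3, 27619 and 28068 on the IAb-/- arrays, and 22235 and 22237 on the B6 arrays. Experiment 1 ran the same way, with 24028 in CIITA-/-, 22287 in IAb-/- and 18889 in B6 cells. The limma log2 difference was 0.24 for CIITA-/- against B6 (SE 0.13, adjusted p = 0.93) and 0.32 for IAb-/- against B6 (SE 0.13, adjusted p = 1), so neither passed the threshold. Quantile normalization left them at 0.24 and 0.35. Of the 5 regulators above the noise, 1 (Hif1a) was higher in CIITA-/- than in B6 cells and 2 in IAb-/- than in B6 cells, with medians of -0.046 and -0.10. Hif1a's probe set also carries the maker's mark for a family of related sequences.

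Pcx, pyruvate carboxylase, which feeds pyruvate into gluconeogenesis and the citrate cycle, read 2132 and 2249 on the CIITA-/- arrays, 3379 and 2619 on the IAb-/- arrays, and 3467 and 3745 on those of B6 (experiment 2, then 3). Both CIITA-/- arrays were below the other 4. Of the 3692 probe sets above the noise, 18.2% had both CIITA-/- arrays below both B6 arrays, and 11.9% below both IAb-/- arrays. The limma log2 difference of Pcx in CIITA-/- against B6 was -0.72 (SE 0.18, adjusted p = 0.65). Its probe set also bears the mark for a family of related sequences. No difference of experiment 1 was available for the probe sets of Pcx and Mxi1. Egln1, the oxygen sensor that marks HIF-1 alpha for destruction and is itself a HIF target, read 2388 and 2051 in CIITA-/-, 3505 and 2555 in IAb-/-, and 3831 and 3189 in B6 cells. Its difference of CIITA-/- against B6 was -0.66 (SE 0.23, adjusted p = 0.83), with -0.37 in experiment 1. Mxi1, which competes with Myc for its partner Max, averaged 5420 ± 824 in CIITA-/- and 7552 ± 697 in B6 cells (SD, n = 2 each; limma log2 difference -0.48, adjusted p = 0.85).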

How the data were processed

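RNA of 9 arrays was analysed from 2 deposited value tables, 1 with the 6 arrays of experiments 2 and 3 and 1 with the 3 of experiment 1. Their values are linear intensities, some of them negative, as the authors deposited them. The algorithm, scaling and normalization behind them are not given in the sources used here. Intensities were floored at the table's 30th percentile (123.5) and converted to log2, and probe sets above the floor on at least 2 arrays were tested (9312 of 12422). They were fitted with limma 3.58.1 (lmFit and eBayes, R 4.3.3) over all 6 arrays, with 3 residual degrees of freedom and Benjamini-Hochberg adjustment over all probe sets tested. The same steps were tested on simulated data. Precision is limited by the number of arrays. Symbols came from the platform annotation: 10833 probe sets of experiments 2 and 3 had 1 symbol, 396 several and 1193 none.

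The glycolysis members and the lists were chosen with earlier results of these data known. Of other pathway genes, those called, or up to 4 per list and comparison with the largest difference above the noise limit, could be named. The CIITA-/- array whose title has no experiment number was taken as experiment 2, the one left in its group. Titles call the numbers experiments, and same-numbered arrays deviated together from their group means (r = 0.306 for CIITA-/- and IAb-/-, 0.219 for CIITA-/- and B6, 0.297 for IAb-/- and B6, over 3692 probe sets), so the numbers pair the samples. With the experiment as a block no glycolysis call changed, and calls over all probe sets went to 0 in CIITA-/- against B6, IAb-/- against B6 and CIITA-/- against IAb-/-. Alternatives tried were a floor at the noise limit, no filter, quantile normalization, scaling on the brightest 10% of probe sets, the brightest probe set per gene, a fit over all 9 arrays, and leaving out each array.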

Additional observations from a re-analysis of the deposited data

How the results depend on the processing

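No glycolysis probe set tested was called under the alternatives run. The 2 fits with the experiment as a block give no comparison of experiments, and the one over 9 arrays tested 6 glycolysis probe sets. The replicate block, with the experiments as pairs, gave 0 calls over all probe sets in each genotype comparison, against 9 in CIITA-/- against B6, 1 in IAb-/- against B6 and 2 in CIITA-/- against IAb-/- without it, and changed no glycolysis call. In the order CIITA-/- against B6, IAb-/- against B6, CIITA-/- against IAb-/- and experiment 3 against experiment 2, these calls were 3, 0, 4 and 0 with the floor at the noise limit and 14, 5, 7 and 0 with no filter. They were 3 for IAb-/- against B6 with quantile normalization, 0 there and 1 between experiments with the brightest probe set per gene, and 4 and 0 for the mutants against B6 with the block over all 9 arrays. Leaving out 1 array gave 0 to 1, 0 to 0, 0 to 1 and 0 to 0 calls. The median of the 7 glycolysis differences of IAb-/- against B6 ran from -0.16 without the IAb-/- array of experiment 2 to 0.26 without that of experiment 3.

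Some small log2 differences changed sign, and the cause was not tested. Under quantile normalization these were the brighter Aldoa probe set (-0.015 in CIITA-/- and -0.017 in IAb-/- against B6, 0.023 between experiments), the other Aldoa probe set (0.035 between experiments), Hk1 (-0.031, IAb-/- against B6), and in CIITA-/- against IAb-/- Slc2a1 (-0.0048) and Ldha (-0.033). Slc2a1 there was -0.24 with the floor at the noise limit. Scaling on the brightest 10% of probe sets put the dimmer Aldoa at 0.0075 between experiments. The block over 9 arrays gave Pgk1 0.0089 and Tpi1 0.0050 in IAb-/- against B6, and Ldha -0.035 and Hk1 -0.0024 in CIITA-/- against IAb-/-.

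Leaving out each array in turn also changed signs. In CIITA-/- against B6 the ranges were -0.095 to 0.20 (Pgam1), -0.31 to 0.037 (Pgk1), -2.54 to 1.10 (Hk2) and -0.25 to 0.041 (Tpi1). In IAb-/- against B6 they were -0.16 to 0.29 and -0.097 to 0.072 (Aldoa), -0.067 to 0.26 (Pgam1), -0.31 to 0.16 (Pgk1), -0.21 to 1.02 (Slc2a1), -0.039 to 0.33 (Ldha), -0.21 to 0.29 (Hk1) and -0.21 to 0.084 (Tpi1). In CIITA-/- against IAb-/- they were -0.18 to 0.27 (brighter Aldoa), -0.21 to 0.12 (Pgam1), -0.29 to 0.17 (Pgk1), -0.59 to 0.63 (Slc2a1), -0.18 to 0.19 (Ldha), -0.17 to 0.33 (Hk1) and -0.16 to 0.076 (Tpi1). Between experiments they were -0.054 to 0.075 (dimmer Aldoa), -0.56 to 0.41 (Slc2a1) and -1.52 to 1.39 (Hk2). A lone array was assumed to vary like the other groups.
Intensity within the noise limits what can be said of Hk2 and Slc2a1, and 2 arrays a group limit the rest.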

Other observations

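Fbp1, fructose bisphosphatase, which runs the reverse of the phosphofructokinase step in gluconeogenesis, showed the widest gap between experiments among the pathway genes above the noise. It read 7535 in experiment 3 against 18942 in experiment 2 in CIITA-/- cells, 4569 against 21257 in IAb-/- cells and 9409 against 21255 in B6 cells. All 3 arrays of experiment 3 were below all 3 of experiment 2. The share of all probe sets with such a full separation is not given here. The weaker pattern, lower in experiment 3 in all 3 groups, held for 20.3% of the 3692 probe sets above the noise. The limma log2 difference of Fbp1 was -1.57 (SE 0.26, adjusted p = 0.48), which did not pass the threshold, and -1.59 after quantile normalization.

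Of 8 other known HIF targets above the noise, 4 (Egln1, Higd1a, Ndrg1 and P4ha1) were lower in all 3 groups and 0 higher, where 20.3% and 20.9% of all probe sets above the noise were, and the median fitted log2 difference of the 8 was -0.19. Hmox1 and Mxi1 had fitted differences above 0, of 0.26 and 0.078 (limma, adjusted p = 0.66 and 0.86). Ndrg1, a stress-response gene, read 11184 in experiment 3 against 13791 in experiment 2 in CIITA-/- cells, 11036 against 14572 in IAb-/- cells and 12036 against 14936 in B6 cells. P4ha1, a subunit of the prolyl hydroxylase of collagen, read 2532 against 3112, 2151 against 4308 and 2100 against 3892 in the same groups. None of them passed the limma test (adjusted p = 0.60 for each of these 2).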
